A study of Mus musculus with 5 samples.

Results

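The nuclear-encoded subunits of the mitochondrial respiratory chain are described here in microglia sorted from mice with a conditional deletion of A20, a ubiquitin-editing enzyme, and from controls. The members are the protein-coding genes of the count table whose symbols begin with Ndufa, Ndufb, Ndufc, Ndufs or Ndufv and a digit (complex I), are Sdha to Sdhd (complex II), or begin with Uqcr (complex III), Cox4 to Cox8 (complex IV) or Atp5 (complex V, ATP synthase), pseudogene symbols left out. This rule took 84 of 41388 genes: 37 of complex I, 4 of complex II, 8 of complex III, 18 of complex IV and 17 of complex V. The rule goes by symbol, so it leaves out subunits with other names (Ndufab1 of complex I, Cyc1 of complex III) and keeps Ndufa4, which is named for complex I and known as a subunit of complex IV, Cox7a2l, a factor of respiratory supercomplexes, and Atp5s, which is not counted as a subunit.

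Bulk RNA sequencing compared microglia, the resident macrophages of the brain, between 2 groups of C57Bl/6 mice aged 4 weeks. Every mouse was given 2 mg tamoxifen at postnatal day 14 and again at day 16, and cells positive for the reporter eYFP were sorted from papain-digested brain. The 2 control libraries (eYFP-A20fl/wt Cx3cr1-CreERT2/+) came from microglia with 1 floxed A20 allele and the CreERT2 recombinase, which tamoxifen switches on, in the Cx3cr1 locus, which the labels call partially deficient, and the 3 A20 deletion libraries (eYFP-A20Dmg) from microglia called fully deficient. Cx3cr1 is active in microglia and in other mononuclear phagocytes. Since the labels name no animal for a library, p-values reflect only how these samples vary, and part of that may be technical.

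Complexes I to IV pass electrons from NADH and succinate to oxygen and, except for complex II, pump protons across the inner mitochondrial membrane, and complex V uses the proton gradient to make ATP. All complexes but complex II combine subunits encoded in the nucleus with a few encoded by mitochondrial DNA, so that expression of both genomes has to be matched. Macrophages are known to shift between oxidative phosphorylation and glycolysis with their activation state, and A20 restrains NF-kB signalling, a main driver of that activation.

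The libraries held between 9726334 and 15275199 counts, and no pair of them agreed within sampling noise (chi-square per degree of freedom from 15.2 to 141). Tnfaip3, which encodes A20, was at 454.1 and 94.7 CPM (read counts scaled to the depth of each library) in control replicates 1 and 2, against 294.6, 276.9 and 347.5 CPM for A20 deletion. This gave a log2 fold change of 0.16 with SE 0.55 (edgeR adjusted p = 0.881). Counts over all its exons do not check the deletion, since the labels name no deleted exon. Microglial markers were abundant in every library (Csf1r from 11425 to 16225 CPM), but 8 of the 10 listed had a log2 fold change below 0 (median -0.46). In 7 every A20 deletion library was below both controls, against 18.5% of all tested genes. The summed CPM of the 10 markers was 0.774, 0.754 and 0.685 times the control mean in A20 deletion replicates 1, 2 and 3. At an edgeR adjusted p under 0.05, Fcrls was lower and Aif1 higher. At an unadjusted p under 0.05, 6 were lower, against 8.26% of all tested genes. The part of this in the members' shift was not tested. A20 deletion replicates 2 and 3 stood apart: mitochondrially encoded transcripts took 4.63% and 3.56% of their counts, whereas the share was 1.19% and 0.852% for the controls and 0.847% for A20 deletion replicate 1. Transcripts below the median length made up 61.1% and 60.4% of the counts in these replicates (over tested genes), 52.7% in replicate 1, and 49.5% and 50.8% in control replicates 1 and 2. Xist had 780 counts in the first control, 616 in A20 deletion replicate 1 and 0 in the others, so both groups mix libraries with and without it. Single genes are therefore given library by library, and medians over genes also with A20 deletion replicate 1 as the only deletion library, a fit that takes its spread from the 2 controls alone.

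Cox6a2 was the 1 of 78 tested members called in the comparison, where 2.08% of all tested genes were called higher. It is the muscle-type isoform of a complex IV subunit whose ubiquitous form is Cox6a1. Their coding sequences are shown because the reads of 2 related genes must be told apart for this result to hold. In both lines (GENCODE M21 on GRCm38; Cox6a1 from its coding base 37 to 336, Cox6a2 whole) capitals mark the bases that differ between the 2 sequences in their alignment or have no partner in it.
Cox6a1: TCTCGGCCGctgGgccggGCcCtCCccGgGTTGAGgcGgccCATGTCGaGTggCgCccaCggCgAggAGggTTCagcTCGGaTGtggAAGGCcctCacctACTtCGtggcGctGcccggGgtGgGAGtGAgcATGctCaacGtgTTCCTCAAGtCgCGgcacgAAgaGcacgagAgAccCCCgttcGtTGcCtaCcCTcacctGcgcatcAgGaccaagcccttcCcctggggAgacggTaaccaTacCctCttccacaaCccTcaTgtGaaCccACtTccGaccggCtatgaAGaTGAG
Cox6a2: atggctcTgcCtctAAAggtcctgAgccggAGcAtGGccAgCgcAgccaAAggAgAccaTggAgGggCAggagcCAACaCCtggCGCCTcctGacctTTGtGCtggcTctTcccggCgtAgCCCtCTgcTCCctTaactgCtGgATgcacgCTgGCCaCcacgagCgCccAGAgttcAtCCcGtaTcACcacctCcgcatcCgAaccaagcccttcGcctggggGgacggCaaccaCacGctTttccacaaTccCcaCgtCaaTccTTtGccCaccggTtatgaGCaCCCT
The whole coding sequences of 336 and 291 bases aligned over 287 bases, of which 66.55% were identical, and the longest identical run was 12 bases. Neither gene had another copy elsewhere in the annotation at 95% identity or above over at least 100 coding bases.

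Cox6a2 (ENSMUSG00000030785, GRCm38 chromosome 7, 128205435 to 128206387, minus strand) rose in the A20 deletion libraries. It was at 2.28 and 1.99 CPM for the controls against 9.96, 10.8 and 14.6 CPM for A20 deletion replicates 1, 2 and 3, from 32, 31, 115, 137 and 143 reads. All 3 A20 deletion libraries were above both controls, and the library with a control-like mitochondrial share was as clearly above them as the other 2. Group means of 2.13 ± 0.203 CPM (SD, n = 2) and 11.8 ± 2.46 CPM (SD, n = 3) gave a log2 fold change of 2.46 (SE 0.30, edgeR adjusted p = 0.013). Over the 19 fits made, log2 fold change ran from 1.67 to 2.54 and the call held in 17. Of these, 1 has A20 deletion replicate 1 as its only deletion library (log2 fold change 2.23). It assumes that this library varies like the 2 controls, so it gives no replicate check of that library. In another, with the replicate number as a block, A20 deletion replicate 3 adds nothing to the fold change, since no control has its number. The call was lost without control replicate 1 (2.51, edgeR adjusted p = 0.128) and without control replicate 2 (2.31, edgeR adjusted p = 0.191), where 1 control is left and 16 and 0 of all genes were called higher by edgeR.

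Cox6a1, the ubiquitous form, was at 71.8 and 82 CPM for the controls against 112, 120 and 149 CPM for A20 deletion (log2 fold change 0.72, SE 0.19, edgeR adjusted p = 0.11). Cox6a2 reads made 3.17% and 2.42% of Cox6a1 reads in the controls and 8.89%, 8.99% and 9.79% in the A20 deletion libraries, with no overlap between the groups. Cox6a1 still had far more reads than Cox6a2 in every library. Per kilobase of transcript the control mean was 134.8 CPM for Cox6a1 and 3.14 CPM for Cox6a2.

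**Figure D1:**
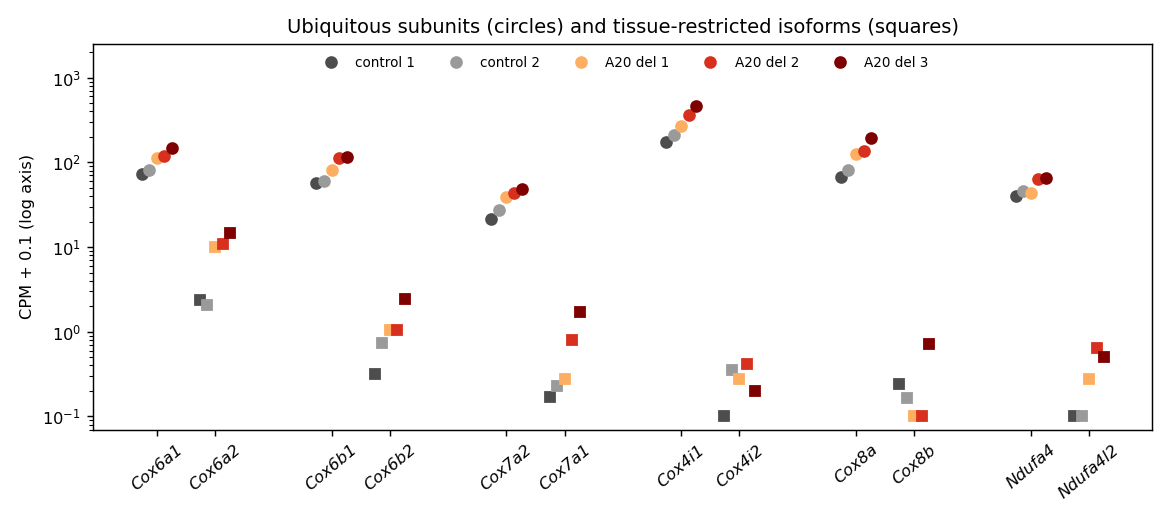
CPM plus 0.1 (log axis) of 6 ubiquitous subunits (circles) and their tissue-restricted isoforms (squares) in each of the 5 libraries; each point is 1 library. Cox6a2 lay at 2.28 and 1.99 CPM for the controls and between 9.96 and 14.6 CPM for A20 deletion, and the other restricted isoforms were at 2.34 CPM or less in every library.

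The other tissue-restricted isoforms gave few reads. Cox6b2, the testis-type partner of Cox6b1, had 3 and 10 reads in the controls and 11, 12 and 23 in the A20 deletion libraries (log2 fold change 1.68, SE 0.85, edgeR adjusted p = 0.297). Cox7a1, the muscle-type partner of Cox7a2, had 1 and 2 reads in the controls and 2, 9 and 16 in the A20 deletion libraries, and Ndufa4l2, the hypoxia-induced relative of Ndufa4, had 0 and 0 against 2, 7 and 4. Both were too low to be tested. Cox4i2, the lung-type and oxygen-responsive partner of Cox4i1, had between 0 and 4 reads, and Cox8b, the muscle-type partner of Cox8a, between 0 and 6. Cox7b2 and Cox8c, both known from testis, had 0 reads in every library, which allows up to 3 reads, or from 0.192 to 0.306 CPM. These 6 untested members (Cox4i2, Cox7a1, Cox7b2, Cox8b, Cox8c and Ndufa4l2) left 78 members in the test of 12240 genes.

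As a group the members lay above the controls, and almost none of them passed the test alone. In edgeR's quasi-likelihood test with Benjamini-Hochberg adjustment over all genes, 1 of 78 members was called higher and 0 were called lower, where 2.08% of all tested genes were called higher and 0.507% lower. Before adjustment 43 of 78 had p under 0.05 and a higher level (background 12.8%), and 0 had p under 0.05 and a lower level (background 8.26%). The log2 fold change was above 0 in 75 of 78, against 53.6% of all tested genes. In 57 of 78 all A20 deletion libraries were above both controls (background 21.8%), and in 1, Ndufs1, all were below (background 18.5%). The median log2 fold change was 0.62, from -0.18 (Atp5s) to 2.46 (Cox6a2) with quartiles of 0.31 and 0.81, while the median of all tested genes was 0.046. In bulk RNA a different number of cells of a type and a different amount of RNA per cell cannot be told apart.

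The libraries contributed unequally to this shift. The members' CPM summed to 4144 and 4674 for control replicates 1 and 2, and to 5199, 6269 and 6773 for A20 deletion replicates 1, 2 and 3, that is, to 1.18, 1.42 and 1.54 times the control mean. In A20 deletion replicate 1, 59 of 78 members exceeded both controls (background 36.5%), in replicate 2, 72 (background 45.4%), and in replicate 3, 73 (background 45.1%). In 67 members both replicate 2 and replicate 3 exceeded replicate 1. Without A20 deletion replicate 1, edgeR called 50 of 78 members higher, with 15.7% of all genes called higher, and the median log2 fold change was 0.72. With that replicate as the only deletion library the median was 0.28, and 1 member, Cox6a2, was called (background 2.64%), on a spread that comes from the 2 controls alone. DESeq2 called 19 members higher (background 6.08%), and edgeR without a filter on low counts called 27 of 82 (background 5.06%).

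**Figure D2:**
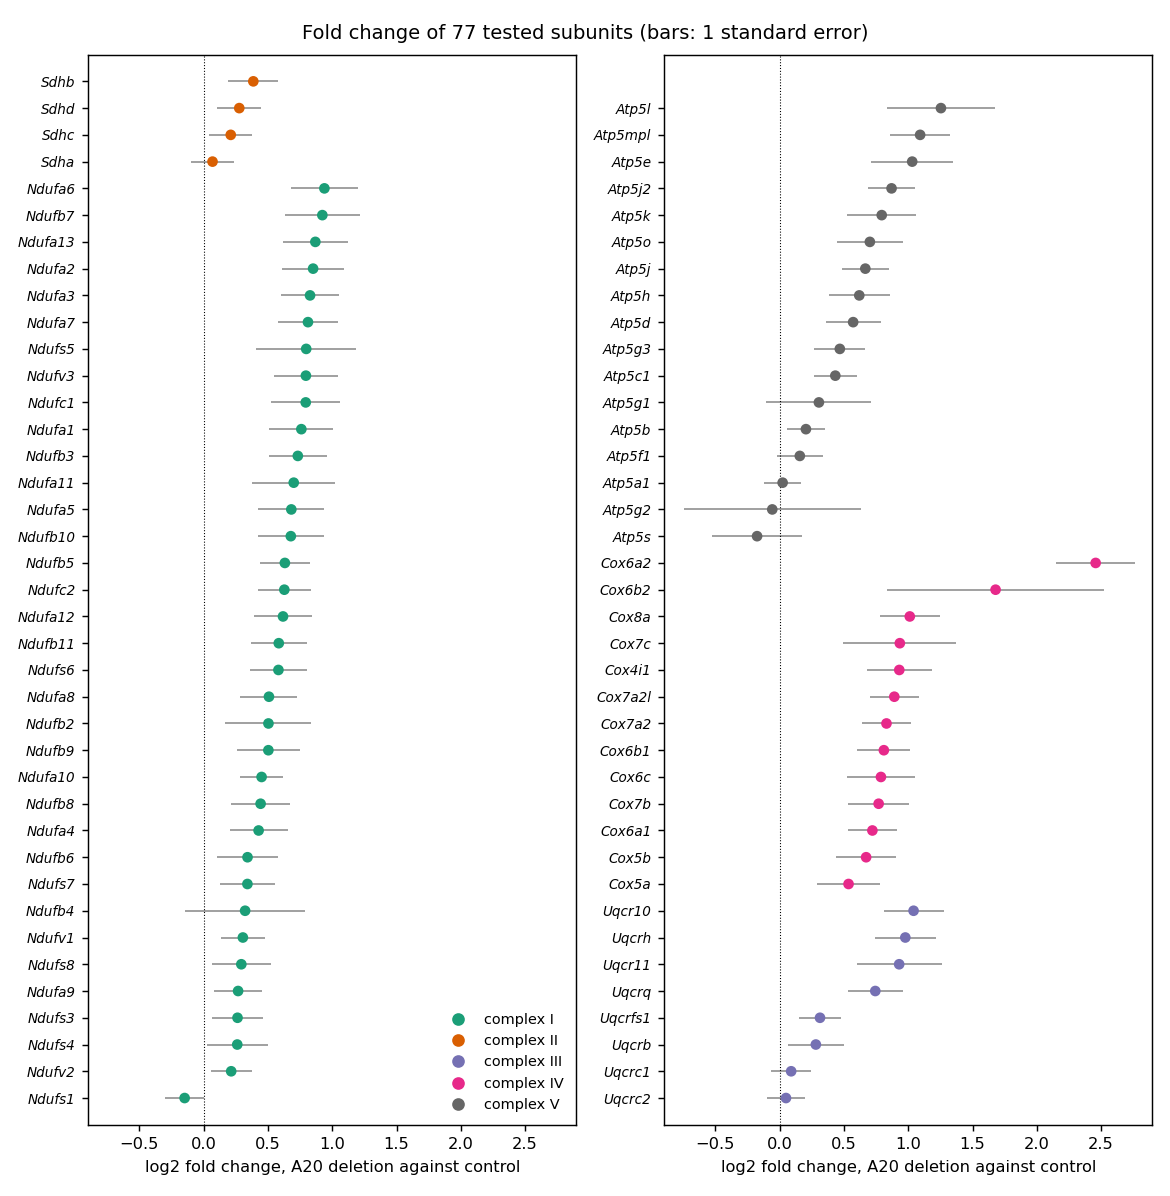
Log2 fold change (A20 deletion against control) of 77 of the 78 tested members, coloured by complex and sorted within it; bars are 1 standard error from edgeR's fit. All but Ndufs1, Atp5g2 and Atp5s lie above 0, and Cox6a2 at 2.46 is farthest to the right.

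Complex IV, cytochrome c oxidase, which passes electrons to oxygen, had the highest median of the complexes. It was the one whose tested members all stood above both controls in every A20 deletion library (13 of 13, background 21.8%). Its median log2 fold change was 0.83, and 10 of 13 had an unadjusted p under 0.05 and a higher level (background 12.8%). It also had the shortest median transcript of the complexes, 659 bases. With the trend of each library on transcript length removed its median log2 fold change was 0.16. The summed CPM of its members was 1.47, 1.86 and 2.18 times the control mean in A20 deletion replicates 1, 2 and 3. The median with A20 deletion replicate 1 alone was 0.64, against 0.14 to 0.28 for the other complexes. Whether complex IV differed from the other complexes was not tested.

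Cox4i1, a structural subunit through which ATP inhibits the enzyme and the most abundant member of complex IV, was at 173 and 209 CPM for the controls against 267, 365 and 459 CPM for A20 deletion. The means of 191 ± 25.7 CPM (SD, n = 2) and 364 ± 96 CPM (SD, n = 3) gave a log2 fold change of 0.93 (SE 0.25, edgeR adjusted p = 0.118). Its groups did not overlap, and A20 deletion replicate 3 was highest. Cox8a, a small membrane subunit of the enzyme, was at 67.2 and 82 CPM against 124, 136 and 191 CPM (log2 fold change 1.01, SE 0.24, edgeR adjusted p = 0.0814). Cox7a2l was at 94.2 and 108 CPM against 156, 201 and 205 CPM (log2 fold change 0.89, SE 0.19, edgeR adjusted p = 0.0641). Both kept the same order, with every A20 deletion library above the controls. Cox7a2 was at 21.4 and 27.3 CPM against 38.4, 43.7 and 47.9 CPM, and Cox6b1, which faces the intermembrane space, at 57 and 60.4 CPM against 80.8, 114 and 114 CPM. Cox7b, which is needed for assembly of the enzyme, was at 23.7 and 24.5 CPM against 29.8, 47.2 and 46.2 CPM. Their log2 fold changes were 0.83, 0.81 and 0.77, with edgeR adjusted p of 0.0828, 0.101 and 0.153. Without A20 deletion replicate 1, edgeR called 10 of these 13 members higher (background 15.7%), all but Cox5a, Cox6b2 and Cox7c.

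Complex I, NADH dehydrogenase, is the largest complex, with a catalytic core that carries the flavin and iron-sulfur clusters and a shell of accessory subunits. Its 36 tested members had a median log2 fold change of 0.58, and 18 had an unadjusted p under 0.05 and a higher level (background 12.8%). In 25 all A20 deletion libraries were above both controls (background 21.8%). The 29 accessory members had a median of 0.63, and 18 of them had an unadjusted p under 0.05 and a higher level (background 12.8%). The 7 core members had a median of 0.26, and 0 of them had an unadjusted p under 0.05 (background 12.8% higher and 8.26% lower). Summed CPM was 1.19, 1.71 and 1.76 times the control mean for the accessory members in A20 deletion replicates 1, 2 and 3, and 1.02, 1.19 and 1.21 times for the core. The core transcripts were longer, with a median of 1623 bases against 732, and with the trend of each library on transcript length removed the medians were -0.16 and 0.030. With A20 deletion replicate 1 alone they were 0.046 for the core and 0.29 for the accessory members. The difference between core and accessory members was not tested.

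Ndufa6, an accessory subunit that binds the mitochondrial acyl carrier protein, was at 51.9 and 51.8 CPM for the controls against 69.5, 105 and 124 CPM for A20 deletion. Ndufa3, a small membrane subunit, was at 28.5 and 30.1 CPM against 40, 53.2 and 62.6 CPM, and Ndufa2, an accessory subunit of the peripheral arm, at 32.7 and 38.5 CPM against 46.9, 70.1 and 75.6 CPM. In all 3 genes A20 deletion replicate 1 lay above the controls and below replicates 2 and 3. The log2 fold changes were 0.94 (SE 0.26), 0.83 (SE 0.22) and 0.85 (SE 0.24), with edgeR adjusted p of 0.12, 0.118 and 0.131. Ndufs1, the largest core subunit, was at 49.6 and 48.4 CPM against 44.2, 43.6 and 44.8 CPM (log2 fold change -0.15, SE 0.15, edgeR adjusted p = 0.574). Ndufa4 was at 40.05 and 45.9 CPM against 43.4, 64.1 and 65.9 CPM, and its groups overlapped.

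Complex II, succinate dehydrogenase, joins the tricarboxylic acid cycle to the chain and is encoded in the nucleus alone. It had the lowest median of the complexes, 0.24, and 0 of 4 members had an unadjusted p under 0.05 (background 12.8% higher and 8.26% lower). It also had the longest median transcript of the complexes, 2065.5 bases. With the trend on transcript length removed its median log2 fold change was 0.023. Sdha, the flavoprotein, was at 229 and 262 CPM for the controls against 288, 239 and 246 CPM for A20 deletion, with overlapping groups (log2 fold change 0.068, SE 0.17, edgeR adjusted p = 0.824). Sdhb, the iron-sulfur subunit, was at 70.1 and 69.2 CPM against 74.1, 93.5 and 105 CPM (log2 fold change 0.39, SE 0.19, edgeR adjusted p = 0.295). Of the membrane anchors, Sdhc was at 75.1 and 87.9 CPM against 84.6, 98.4 and 99.8 CPM, and Sdhd at 63.5 and 73.3 CPM against 76.8, 79.2 and 92.8 CPM. Only Sdhb and Sdhd among the 4 had groups that did not overlap, both with A20 deletion higher (background 21.8%). Summed CPM of the complex was 1.13, 1.10 and 1.17 times the control mean in A20 deletion replicates 1, 2 and 3. Sdha was highest in replicate 1, and in 3 of the 4 members both replicate 2 and replicate 3 exceeded replicate 1.

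Complex III, the cytochrome bc1 complex, had 4 accessory members with log2 fold changes of 0.74 to 1.04 (Uqcr10, Uqcr11, Uqcrh and Uqcrq). The 4 other members had 0.049 to 0.31, among them the accessory subunit Uqcrb with 0.28 and overlapping groups. This division was made after the values were seen. The median of the complex was 0.53, or -0.019 with the trend on transcript length removed (median transcript 955 bases). Uqcr10 was at 15.7 and 20.1 CPM for the controls against 28.9, 39.5 and 42.2 CPM for A20 deletion (log2 fold change 1.04, SE 0.23, edgeR adjusted p = 0.0754). Uqcrh, the hinge protein that contacts cytochrome c1, was at 53.7 and 58.6 CPM against 80.1, 122 and 130 CPM (log2 fold change 0.98, SE 0.24, edgeR adjusted p = 0.0918). Uqcrq was at 37 and 43.1 CPM against 53.7, 67.9 and 79.7 CPM (log2 fold change 0.74, SE 0.21, edgeR adjusted p = 0.133). These 3 had every A20 deletion library above both controls. Uqcrc1, a large core protein and the member of the complex with the highest CPM, was at 145 and 158 CPM against 147, 169 and 168 CPM, with overlapping groups (log2 fold change 0.089, SE 0.16, edgeR adjusted p = 0.753).

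Within complex V, ATP synthase, the medians were not level across its parts, and the differences between them were not tested. The 4 small membrane subunits (Atp5j2, Atp5k, Atp5l and Atp5mpl) had a median log2 fold change of 0.98, and their summed CPM was 1.49, 2.04 and 2.20 times the control mean in A20 deletion replicates 1, 2 and 3. The peripheral stalk (4 members) had a median of 0.64, the catalytic head with its central stalk (5 members) 0.43 and the c ring (3 members) 0.30. In the same order of parts the median transcript lengths were 578, 823.5, 1410 and 731 bases, and with the trend on transcript length removed the medians were 0.35, 0.0060, 0.042 and -0.18. With A20 deletion replicate 1 alone they were 0.53, 0.25, 0.28 and -0.14. Atp5j2, a small subunit of the membrane part, was at 33.9 and 34.4 CPM for the controls against 52.6, 66.5 and 68.2 CPM for A20 deletion (log2 fold change 0.87, SE 0.18, edgeR adjusted p = 0.064). Atp5mpl, a proteolipid attached to the membrane part, was at 19.1 and 21.4 CPM against 32.5, 49.5 and 47.6 CPM (log2 fold change 1.09, SE 0.23, edgeR adjusted p = 0.0641). Atp5j, coupling factor 6 of the peripheral stalk, was at 42.2 and 48 CPM against 62.4, 72 and 80.5 CPM (log2 fold change 0.67, SE 0.18, edgeR adjusted p = 0.12). None of the 3 overlapped between groups.

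Atp5b, the catalytic beta subunit, was at 453 and 474 CPM for the controls against 522, 517 and 564 CPM for A20 deletion, with no overlap and a log2 fold change of 0.20 (SE 0.14, edgeR adjusted p = 0.434). It had the second highest level per kilobase of all members, 241.9 CPM in the controls, after Cox4i1 with 249.7. The 3 genes of the c ring encode the same mature protein. Of these, Atp5g3 was at 72 and 89 CPM against 92.4, 117 and 125 CPM (log2 fold change 0.47, SE 0.20, edgeR adjusted p = 0.236), and Atp5g1 at 5.12 and 6.8 CPM against 4.5, 6.68 and 11 CPM. Atp5g2 had between 8 and 15 reads a library, but 2 other loci hold its coding sequence at 100% identity, so its level is uncertain.

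**Figure D3:**
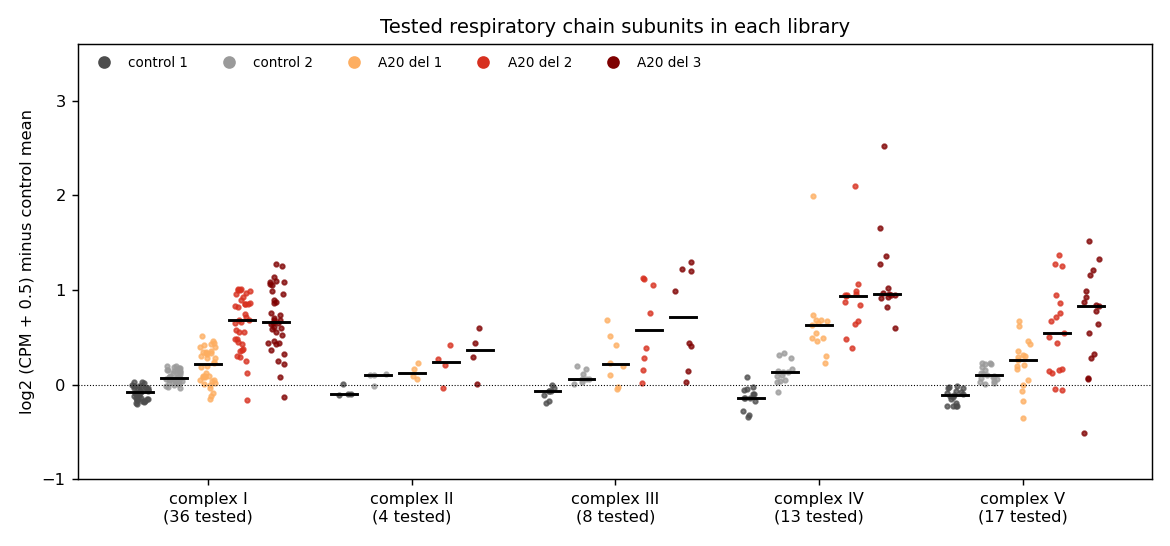
Log2 (CPM + 0.5) of each tested member minus its mean over the 2 controls, by complex and library; each point is 1 gene and the black bar is the median of the genes in that library. Complex IV medians were 0.63, 0.94 and 0.96 in A20 deletion replicates 1, 2 and 3, those of complex I were 0.22, 0.69 and 0.67, and those of complex II were 0.13, 0.24 and 0.37.

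Members with short transcripts had the larger fold changes. Across the 78 tested members log2 fold change and the length of a representative transcript had a Spearman correlation of -0.68, as a description over genes that share the same 5 libraries. For A20 deletion replicates 1, 2 and 3 taken singly it was -0.43, -0.64 and -0.66. The 46 members under 1 kb had a median log2 fold change of 0.75, the 25 members of 1 to 2 kb 0.30 and the 7 longer members 0.21. All tested genes of the same length classes had medians of 0.71 (890 genes), 0.27 (2532 genes) and -0.084 (8772 genes). The members under 1 kb thus had nearly the median of all short genes. In A20 deletion replicate 1 the median log2 difference from the control mean was 0.34, 0.17 and 0.059 for the members of these 3 classes.

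With each library's trend on transcript length removed, an alternative chosen after the data were seen, the members' median log2 fold change was 0.043 and 43 of 78 were above 0 (background 50.7%). By complex the medians were then -0.011, 0.023, -0.019, 0.16 and 0.042 for complexes I to V, and 11 of the 13 complex IV members were above 0. With the trend on total exonic length removed instead, the members' median was 0.14. Cox6a2, the 1 member called by edgeR after the first correction (background 2.25%), had a log2 fold change of 1.76 (edgeR adjusted p = 0.0268), while Cox8a had 0.21, Uqcr10 0.11, Ndufa6 0.14 and Cox6a1 -0.048. The part of transcript length, and of what it stands for in these libraries, in the members' shift was not tested further. The representative transcripts of Atp5g1 and Ndufb2 are long (4715 and 4371 bases), and which of their transcripts these cells express was not tested.

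**Figure D4:**
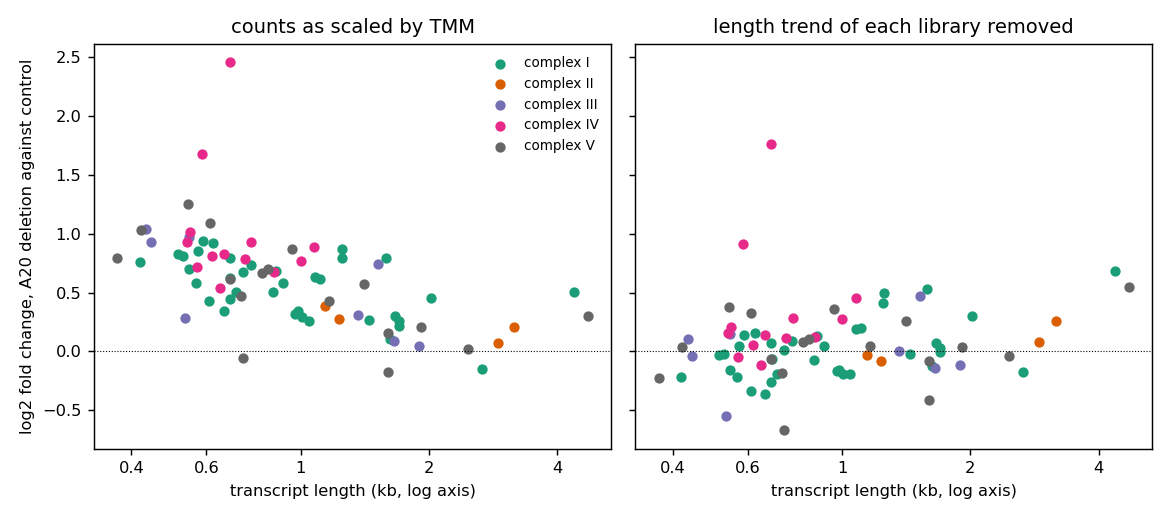
Log2 fold change (A20 deletion against control) of the 78 tested members against the length of a representative transcript (kb, log axis), before (left) and after (right) the length trend of each library was removed; each point is 1 gene, coloured by complex. The downward slope on the left (Spearman -0.68) is absent on the right (0.17), where Cox6a2 stays highest at 1.76.

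Other families of housekeeping genes were set beside the members in the same fit. Cytosolic ribosomal proteins, whose transcripts are also short (median 897 bases, 850 for the members), had 14 of 78 called higher (background 2.08%). Their median log2 fold change was 1.15, or 0.52 with the transcript length trend removed. Mitochondrial ribosomal proteins (75 tested) and constitutive proteasome subunits (36 tested) had 0 called each (background 2.08% higher and 0.507% lower). The medians of these 2 families were 0.29 and 0.19. With the trend removed these were -0.019 and -0.10. With A20 deletion replicate 1 alone the medians were 0.70 for the cytosolic ribosomal, 0.070 for the mitochondrial ribosomal and 0.040 for the proteasome list. The members' medians of 0.62 and 0.043 lay between those of the cytosolic ribosomal and the other 2 families, and the differences between families were not tested.

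The 13 subunits encoded by mitochondrial DNA did not follow the nuclear members library by library. Their summed CPM was 10404 and 7087 for the controls and 7746, 43237 and 32435 for A20 deletion replicates 1, 2 and 3. For each CPM of the nuclear members this was 2.51 and 1.52 in the controls and 1.49, 6.90 and 4.79 in the A20 deletion libraries. A20 deletion replicate 1 thus lay just below control replicate 2 and further below control replicate 1 on this ratio. The nuclear members of A20 deletion replicate 1 summed to 1.18 times the control mean. mt-Co1, the catalytic subunit of complex IV, was at 2862 and 2098 CPM against 2296, 13639 and 10514 CPM (log2 fold change 1.83, SE 0.66, edgeR adjusted p = 0.191), and mt-Nd4, a proton-pumping subunit of complex I, at 557.6 and 282.2 CPM against 377.2, 3197 and 2520 CPM (2.27, SE 0.82, edgeR adjusted p = 0.192). None of the 7 tested was called, and the groups overlapped in all 7. mt-Nd3, mt-Nd4l, mt-Co3, mt-Atp6 and mt-Atp8 had 0 reads in every library and mt-Co2 had 1. All of these but mt-Atp8 have a nuclear copy in the annotation at 99.7% to 100% identity, and the part of such copies in the missing reads was not tested. mt-Co1 and mt-Nd4, which were counted, also have copies, mt-Co1 at up to 99.8% and mt-Nd4 at 100% over 876 of its 1378 bases. With the mitochondrially encoded share as a term of the model, also chosen after the data were seen, the nuclear members' median log2 fold change was 0.34 and Cox6a2 was the 1 member called (2.32, edgeR adjusted p = 0.0104, background 2.77%).

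**Figure D5:**
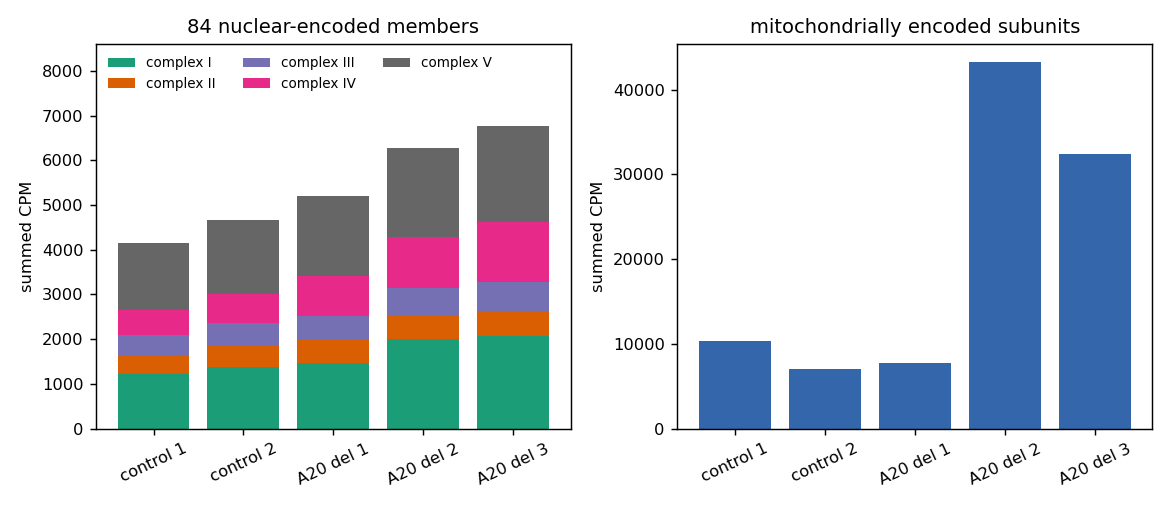
Summed CPM in each library of the 84 nuclear-encoded members, stacked by complex (left), and of the mitochondrially encoded subunits (right); bars start at 0 and each bar is 1 library. The nuclear sums run from 4144 to 6773, while the mitochondrial sums are between 7087 and 10404 in 3 libraries and 43237 and 32435 in A20 deletion replicates 2 and 3.

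Genes that build, feed or regulate the chain were called in no case. Of 46 tested assembly factors 0 were called, 4 had an unadjusted p under 0.05 and a higher level, and the median log2 fold change was 0.21, or 0.070 with A20 deletion replicate 1 alone. Ndufaf8, a complex I assembly factor, was at 6.4 and 9.69 CPM for the controls against 14.6, 17.6 and 15.2 CPM for A20 deletion (log2 fold change 0.97, SE 0.25, edgeR adjusted p = 0.109). Uqcc2, which acts in the synthesis of cytochrome b, was at 16.6 and 22.7 CPM against 29.2, 33.6 and 37.8 CPM (0.77, SE 0.22, edgeR adjusted p = 0.129). Both were among the 16 of 46 tested assembly factors with every A20 deletion library above both controls (background 21.8%). Subunits and carriers outside the symbol rule (10 tested) had a median of 0.25, and 0.077 with A20 deletion replicate 1 alone. Among them Atpif1, the ATP synthase inhibitor, was at 22 and 26.1 CPM against 29.3, 45.9 and 52.3 CPM, and Slc25a4, the ADP/ATP carrier, at 102 and 132 CPM against 148, 194 and 197 CPM (edgeR adjusted p = 0.167 and 0.168).

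The transcriptional and mitochondrial regulators of the chain did not shift as a list, with a median of -0.039 over 16 tested (-0.091 with A20 deletion replicate 1 alone). Gabpa, the DNA-binding subunit of nuclear respiratory factor 2, was at 78.7 and 63.6 CPM for the controls against 62.6, 39 and 37.7 CPM for A20 deletion (log2 fold change -0.61, SE 0.26, edgeR adjusted p = 0.234). Slirp, which stabilises mitochondrial messenger RNA, was at 6.47 and 9.49 CPM against 12.6, 18.2 and 17.4 CPM (1.01, SE 0.28, edgeR adjusted p = 0.121). The tricarboxylic acid cycle (16 tested) had a median of -0.0036 (0.13 with A20 deletion replicate 1 alone), with Idh3b at 48.1 and 58 CPM against 66.9, 78.3 and 86 CPM (edgeR adjusted p = 0.181) and Mdh2 at 104 and 98.7 CPM against 115, 122 and 143 CPM (edgeR adjusted p = 0.307). Mitochondrial antioxidant and uncoupling genes (9 tested) had a median of 0.35, and 0.23 with A20 deletion replicate 1 alone. Prdx5, a peroxiredoxin, was at 117 and 124 CPM against 186, 215 and 241 CPM (log2 fold change 0.83, SE 0.17, edgeR adjusted p = 0.0631), and Gpx4, which reduces lipid peroxides, at 24.7 and 27.6 CPM against 32, 39.9 and 47.8 CPM (0.61, SE 0.21, edgeR adjusted p = 0.185). All 3 A20 deletion libraries were above both controls for Idh3b, Mdh2, Prdx5 and Gpx4, which were named for the smallest p in their lists. Over the whole lists this held for 4 of 16 tricarboxylic acid cycle genes and 6 of 9 antioxidant and uncoupling genes (background 21.8%).

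Some member promoters hold the binding letters of factors known to control respiratory genes. Promoters of 68 members were found in RefSeq (GRCm38.p6, 250 bases before to 50 after the start) and searched on both strands for NRF1 (GCGC, any 1 base, TGCGC), GABP (CCGGAAGT), ERRA (TCAAGGTCA) and YY1 (AAGATGGC). The NRF1 letters were in 23.5% of the member promoters and in 4.78% of all 27025 promoters of that length. For YY1 these shares were 13.2% and 2.88%, for GABP 7.35% and 4%, and for ERRA 2.94% and 0.407%, and 28 of 68 members (41.2%) held at least 1 of the 4, against 11.2% of all. Promoters of 3 members are shown for their contrast: Cox6a1 with 2 NRF1 matches, Cox8a with 2 GABP matches, and Sdha with 3 NRF1 matches and a log2 fold change near 0. Each is written 5′ to 3′ along its gene, which lies on the minus strand, with the matched letters of either strand in capitals.
Cox6a1 (chr5:115348909-115349208): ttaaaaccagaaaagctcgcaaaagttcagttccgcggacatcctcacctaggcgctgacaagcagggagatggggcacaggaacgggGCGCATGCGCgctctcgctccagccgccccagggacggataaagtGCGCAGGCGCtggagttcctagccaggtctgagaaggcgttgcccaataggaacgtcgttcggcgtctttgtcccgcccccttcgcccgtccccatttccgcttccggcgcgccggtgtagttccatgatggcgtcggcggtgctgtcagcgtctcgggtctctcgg
Cox8a (chr19:7217567-7217866): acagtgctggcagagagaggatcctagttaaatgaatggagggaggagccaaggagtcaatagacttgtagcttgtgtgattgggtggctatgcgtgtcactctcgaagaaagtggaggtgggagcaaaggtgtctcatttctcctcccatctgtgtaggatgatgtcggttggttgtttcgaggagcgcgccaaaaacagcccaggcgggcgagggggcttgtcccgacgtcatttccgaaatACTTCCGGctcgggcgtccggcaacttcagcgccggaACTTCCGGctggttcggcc
Sdha (chr13:74350191-74350490): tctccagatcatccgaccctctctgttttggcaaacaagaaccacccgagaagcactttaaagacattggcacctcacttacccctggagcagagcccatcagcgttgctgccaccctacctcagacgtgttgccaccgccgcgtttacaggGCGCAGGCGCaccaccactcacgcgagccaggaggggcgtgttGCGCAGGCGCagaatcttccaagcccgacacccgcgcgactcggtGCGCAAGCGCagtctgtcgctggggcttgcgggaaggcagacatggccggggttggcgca
Among the tested members, the median log2 fold change was 0.60 for the 16 with the NRF1 letters and 0.63 for the 49 without. It was 0.93 for the 5 with the GABP letters and 0.62 for the 60 without, 0.44 and 0.65 for YY1 (9 and 56 members), and 0.37 and 0.63 for ERRA (2 and 63 members). With A20 deletion replicate 1 alone these pairs were 0.22 and 0.32 for NRF1, 0.29 and 0.29 for GABP, 0.059 and 0.30 for YY1, and 0.19 and 0.29 for ERRA. The differences were not tested. A match is a description of the letters and not of binding.

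Counts of members with near-identical copies are uncertain, since how reads with several matches were treated is not given in the sources used here. At 95% identity or above over at least 100 coding bases, 23 members had a copy elsewhere in the annotation, most of them processed pseudogenes. Atp5l had 9 such copies, Atp5h 4, and Cox7c and Uqcrb 3 each. In the controls the level per kilobase ran from 1.05 (Atp5g2) to 93.9 CPM (Cox7a2l) over these 23, with a median of 27.7, and from 0.731 (Cox6b2) to 249.7 CPM (Cox4i1) with a median of 51.8 over the 55 tested members without a copy. Among those with several copies Cox7c was at 3.64, Atp5l at 6.87, Uqcrb at 27.7 and Atp5h at 37.0 CPM per kilobase. The 55 had a median log2 fold change of 0.57 and Cox6a2 as their 1 called member, and the 23 had 0.67. With A20 deletion replicate 1 alone these medians were 0.29 and 0.25.

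Markers of other cells were low and moved unevenly across the libraries. Monocyte markers summed to 26.6 and 30.2 CPM in the controls and to 112, 63 and 82 CPM in A20 deletion replicates 1, 2 and 3, and 2 of 6 tested, Ms4a4c and Plac8, were called higher by edgeR (Ms4a4c at 4.55 and 3.46 CPM against 53.5, 31.1 and 37.2). T and NK cell markers summed to 0.925 and 1.6 CPM against 9.62, 6.05 and 5.7 CPM with 0 of 2 tested called, and Cd3e, Cd3d, Cd3g, Trac, Cd2, Cd8a, Ncr1 and Gzma were at 0 in both controls (highest marker Cd4, at most 3.98 CPM). Astrocyte markers summed to 180 and 264 CPM against 199.5, 423 and 424 CPM with 1 of 9 called (Aldh1l1), and oligodendrocyte markers to 196 and 224 CPM against 264, 376 and 370.2 CPM with 0 of 7 called. Endothelial markers summed to 67.1 and 74.5 CPM against 247, 67.4 and 67.6 CPM with 0 of 10 called. The sums do not show that 9 of these 10 had a log2 fold change above 0 (median 2.10). In 7 every A20 deletion library was above both controls (background 21.8%), and in 1 every one was below (background 18.5%). Their median log2 differences from the control mean were 2.20, 0.67 and 1.25 in A20 deletion replicates 1, 2 and 3. Neuron markers summed to 8.82 and 3.85 CPM against 10.1, 19.3 and 13.1 CPM, neutrophil markers to at most 18.6 and red blood cell markers to at most 23.5, and B cell markers, led by Ighm, to between 275 and 424 CPM, with none called. Highest in the other lists were Slc1a3 (95.7 to 166 CPM), Cnp (95.8 to 133), Pecam1 (26.3 to 53.1), Snap25 (0.834 to 5.35), S100a9 (0.0786 to 6.62) and Hbb-bs (0 to 13.6). Of these sums, those of monocyte, T and NK cell, and endothelial markers were highest in A20 deletion replicate 1, where the members' sum was lowest among the A20 deletion libraries. Those of astrocyte, oligodendrocyte, neuron and B cell markers were higher in replicates 2 and 3 than in replicate 1, as the members' sum was. The part of any of these in the members' shift was not tested.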

How the data were processed

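RNA of 5 libraries of sorted mouse microglia (2 control, 3 A20 deletion) was sequenced with the NEBNext Ultra II kit, using 10 ng RNA with RIN at least 7, per the labels' protocols. The deposited values are raw counts of reads per Ensembl gene, not normalized. Per the submitters' processing notes the tools were STAR 2.4.0j, featureCounts and DESeq2 1.22.1, and the build GRCm38. Not given in the sources used here: the release of the annotation, whether counting used strand, and how reads with several matches were treated, so genes with near-identical copies, and genes overlapping an antisense gene, are uncertain. Of 41388 genes, 1048 had no GENCODE M21 symbol and stayed in the tests.

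The analysis used edgeR 4.0.16 in R 4.3.3: filterByExpr (minimum count 10, minimum total 15) kept 12240 genes, TMM scaling was applied, and the groups were compared with the two-sided quasi-likelihood test without covariates, Benjamini-Hochberg adjusted over all genes tested, threshold 0.05. CPM use the scaled totals, ± is the SD between libraries, and log2 CPM add 0.5. Library totals of 9726334 to 15275199 counts make 3 counts worth 0.192 to 0.306 CPM. Reads carried no molecular identifiers, so such floors cover counting error only. Length trends were removed with a lowess curve of log2 CPM on log10 length in each library. Other fits used DESeq2 1.42.0 and limma 3.58.1 (voom), other scalings and filters, the replicate number as a block, and each library left out. On simulated counts (5 sets with 200 changed genes each, a median of 12121 genes tested) the edgeR test found 2.89% of the 1.5-fold, 27% of the 2-fold, 79.9% of the 4-fold and 95.8% of the 8-fold changes, with 21 false calls of 510.

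The members, gene lists and tests were chosen with earlier results of these data known, so the lists get no test of their own. Genes named in full are called members, per complex the 3 smallest p and the highest mean CPM, both genes of each isoform pair, per pathway list the 2 smallest p, and per list of other cells the highest mean CPM. The result for 1 gene under this rule is not reported here, and its point is left out of the plot of fold changes by member. Uqcrhl, the partner of Uqcrh in that list, was not among the members. Replicate numbers 1 and 2 occur in both groups, but nothing in the labels says that a number marks a shared animal or day. Sequences are from GENCODE M21 and RefSeq (GRCm38.p6).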

Additional observations from a re-analysis of the deposited data

How the results depend on the processing

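The count of members called higher, 1 in the main analysis, was also 1 under 13 other fits of the whole table, with 0.727% to 3.08% of all genes called higher in them, and 0 members were called lower by any fit. It was 27 without a filter on low counts and 19 with DESeq2, and ranged from 0 to 50 when each library was left out: 0 without either control, where 1 control is assumed to vary like the A20 deletion libraries, and 50 without A20 deletion replicate 1. It was 0 among the 56 members without a pseudogene or isoform partner of the same symbol stem, since that subset leaves out Cox6a2. The median log2 fold change of 0.62 became 0.14 with the exonic length trend removed and 0.28 with A20 deletion replicates 2 and 3 omitted. Under alternatives chosen after the data were seen it was 0.043 with the transcript length trend removed and 0.34 with a term for the mitochondrially encoded share; the cause of these shifts was not tested. It ranged from 0.47 to 0.72 when each library was left out. Upper-quartile scaling moved the median of all genes to 0.11 and that of the members to 0.70. The summed CPM of the members, a level and not a fold change, moved by less than 1 SD under every scaling and omission tried. Leaving out a library keeps the counts of the others, so this does not bear on the fold change. With the replicate block, 1 member was called and the median was 0.52. In that fit A20 deletion replicate 3 adds nothing to the fold change, since no control has its number. Same-numbered libraries had deviations correlated at 0.27 and 0.18, but control replicate 2 and A20 deletion replicate 3, of different numbers, had 0.22, and with 2 controls the values of one mirror those of the other, so pairing was not shown. Of the 51 genes in the test that the naming rule takes, DESeq2 called 22 that the main analysis did not, and no gene called in the main analysis changed direction. Detection is limited by 2 and 3 libraries: changes of 1.5-fold were rarely recovered in simulated data.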
